A study of Neurospora crassa OR74A with 13 samples.

Results

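The 87 genes described here were those with much higher transcript levels on sucrose than on cellulose or without a carbon source in wild-type Neurospora crassa, a filamentous fungus that grows on plant cell walls. Transcript levels are FPKM (fragments per kilobase of transcript, scaled to the number of sequenced fragments), summed per gene. A gene was taken when, with 1 added to every value, its lowest value in the 3 wild-type (WT) sucrose libraries was at least 8 times its highest value in the 6 WT libraries on Avicel (crystalline cellulose) and without carbon. Of 9733 genes, 87 (0.894%) met this rule. The genes were thus chosen by their levels in those 9 libraries, which are given as a description. The ratio ran from 8.08 to 78.8, with a median of 13.2. Just inside the limit were NCU11175 (ratio 8.16), NCU00059 (8.13) and NCU04945 (8.08), and just outside were erg-1 (NCU04156, 7.90), NCU00149 (7.90) and cys-18 (NCU07930, 7.89).

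All 13 libraries came from mycelium grown for 16 h in sucrose medium, washed, and moved for 4 h to medium with Avicel, cellobiose (a disaccharide of glucose released from cellulose), sucrose or no carbon source. The WT was the reference strain FGSC 2489, with 3 biological replicates each on sucrose, Avicel and no carbon and 1 library on cellobiose. The strain called TBGK lacks 3 beta-glucosidase genes, gh1-1 (NCU00130), gh3-4 (NCU04952) and gh3-3 (NCU08755), and had 1 library each on sucrose, Avicel and cellobiose. Polyadenylated RNA was sequenced. The labels mark the 9 replicated WT libraries as shared with an earlier deposit, and their files list 9907 transcripts where the other 4 list 9733 genes, so differences between these and the 4 single libraries cannot be told apart from a difference between deposits.

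Beta-glucosidases split cellobiose into glucose, so a strain without them takes up cellobiose but makes little glucose from it. Fungi on a good sugar build their own amino acids, nucleotides, vitamins, lipids and mitochondria, and cross-pathway control, named for the transcription factor CPC-1, raises many amino acid synthesis genes together when amino acids run short. Many of the genes that carried a symbol, 34 of the 87, belong to such synthesis routes. The other 53 are named by locus only and are given no role.

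Depth was 472 to 5640.4 aligned megabases in the 9 replicated libraries, lowest in Avicel replicate 1 and sucrose replicate 1 (480.1), and is unknown for the 4 single ones. A library listed 718 to 2341 genes at an FPKM of 0. The 3 deleted genes together had 2.88 to 12.5 FPKM in the TBGK libraries. In WT their sum was 5888 on cellobiose, 38678 to 62545 on Avicel and 15.5 to 58.2 on sucrose. The sum thus tells the strains apart on Avicel and cellobiose but hardly on sucrose. On cellobiose this rests on gh1-1 (2632 FPKM in WT, 7.47 in TBGK) and gh3-3 (3254 and 3.36). The third gene, gh3-4, was low in both strains there (1.36 in WT, 1.66 in TBGK). Markers of conidia (asexual spores), 6 genes none of which is among the 87, summed to 241 to 561 FPKM in WT sucrose, 18905 to 37183 on Avicel, 74666 to 209815 without carbon and 19092 in WT on cellobiose. The last sum was almost all eas, at 18527 FPKM, while con-6, con-10 and con-13 were at 10.8, 65.4 and 3.32 in WT on cellobiose, below their Avicel ranges of 517 to 2082, 158 to 699 and 7.66 to 9.63. The markers fl and csp-1 went the other way. They were at 163 and 323 in WT on cellobiose, above their Avicel ranges of 58.8 to 96.7 and 257 to 292. In TBGK the sum was 334 on sucrose, 10195 on Avicel and 33514 on cellobiose. The markers con-6, con-10 and con-13 were listed at 0 in sucrose replicate 1. Conidial markers thus moved against the 87 genes between sucrose and the starved or cellulose-fed cultures. Markers of light exposure, 4 genes also outside the group, summed to 1143 to 1194 FPKM in WT sucrose, 3105 to 4041 on Avicel, 2750.1 to 17886 without carbon, 3830.0 in WT on cellobiose, and 1750.0, 6651 and 7260 in TBGK on sucrose, Avicel and cellobiose. The part of both marker groups in the result was not tested. In such bulk RNA, fewer cells of a type and less RNA per cell cannot be told apart.

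The data went against the working name of the group, genes high only on sucrose, because WT on cellobiose also held them high. Together the 87 genes made up 3.92%, 3.44% and 3.63% of all summed FPKM in WT sucrose replicates 1, 2 and 3. Their share was 0.219%, 0.158% and 0.147% on Avicel and 0.176%, 0.184% and 0.168% without carbon. In libraries that the rule did not use, it was 2.19% in WT on cellobiose, 3.75% in TBGK on sucrose, 0.339% in TBGK on Avicel and 0.241% in TBGK on cellobiose. Among these 4 libraries, WT on cellobiose and TBGK on sucrose each lay above both TBGK on Avicel and TBGK on cellobiose in all 87 genes, beside 30.3% of all genes.

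**Figure D1:**
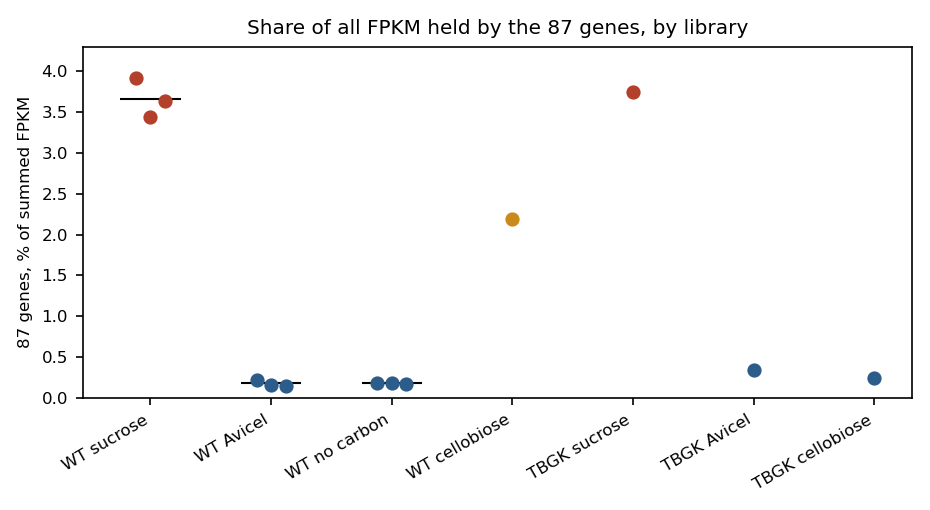
Share of all summed FPKM held by the 87 genes (vertical axis, percent) in each of 13 libraries, with the mean of 3 replicates as a bar where there are replicates. The 3 WT sucrose libraries and TBGK on sucrose lie between 3.44% and 3.92%, WT on cellobiose at 2.19%, and the other 8 libraries at or below 0.339%.

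Branched-chain amino acid synthesis was the route with the largest part of its symbols in the group: 5 of 7 genes, beside 34 of the 1093 genes with a symbol and 0.894% of all genes. The ketol-acid reductoisomerase gene ilv-2 (NCU03608, supercont10.5, 1828479 to 1830575), which acts in valine and isoleucine synthesis, had FPKM of 12406, 16204 and 19370.2 in WT sucrose replicates 1, 2 and 3. Its FPKM was 235, 78.0 and 83.7 on Avicel and 69.8, 63.8 and 79.4 without carbon. WT on cellobiose had 5529, and TBGK had 10704 on sucrose, 391 on Avicel and 276 on cellobiose. Every sucrose library and the WT cellobiose library lay at least 1 order of magnitude above all others. The rule itself required the gap between WT sucrose and the 6 WT libraries on Avicel and without carbon. The gene leu-2 (NCU04385), for the isopropylmalate isomerase of leucine synthesis, had 1225, 1655 and 1991 FPKM on WT sucrose, 12.7 to 43.0 in the 6 low WT libraries and 666 in WT on cellobiose. In TBGK it had 1112 on sucrose, 27.9 on Avicel and 23.1 on cellobiose. The 5 high and the 8 low libraries were those of ilv-2, a split that the rule set in part. In the 4 libraries that it did not use, all 87 genes split alike, beside 30.3% of all genes. The acetolactate synthase regulatory subunit gene ilv-6 (NCU04754) had 1547 to 1782 on WT sucrose and 567 on cellobiose, against 46.5 in TBGK on cellobiose. The isopropylmalate dehydrogenase gene leu-1 (NCU06232) and ilv-4 (NCU01666) showed the same split, with 1121 and 1825 FPKM in WT on cellobiose and 148 and 235 in TBGK on cellobiose. Of the remaining pair, leu-4 (NCU02010) missed the rule at a ratio of 6.93, and ilv-5 (NCU02397) went the other way, with 39.0 to 233 FPKM on WT sucrose and 364 to 1072 in the 6 low libraries.

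Arginine synthesis gave 5 genes, of 15 with an arginine or proline symbol. They were both subunits of the arginine-specific carbamoyl phosphate synthetase, arg-2 (NCU07732) and arg-3 (NCU02677), the acetylornithine aminotransferase gene arg-5 (NCU05410), the argininosuccinate lyase gene arg-10 (NCU08162) and arg-4 (NCU10468), which acts in the acetylated part of ornithine synthesis. The large subunit gene arg-3 had 1582, 1885 and 2062 FPKM on WT sucrose and 11.3 to 66.6 in the 6 low WT libraries. It had 665 in WT on cellobiose against 31.1 in TBGK on cellobiose, while TBGK had 1324 on sucrose and 40.3 on Avicel. Its 4 sucrose libraries and WT on cellobiose were thus again the high ones, in part by the rule. The small subunit gene arg-2 had 2830.1 to 4559 on WT sucrose, 1121 in WT on cellobiose and 231 in TBGK on cellobiose. For arg-5, arg-10 and arg-4 WT on cellobiose had 377, 851 and 1322 FPKM and TBGK on cellobiose 74.8, 99.4 and 172. The argininosuccinate synthetase gene arg-1 (NCU02639), the step before arg-10, missed the rule with a ratio of 7.40, and the proline genes pro-1, pro-3 and pro-4 had ratios of 2.76, 2.86 and 6.60.

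Lysine synthesis gave lys-3 (NCU03010) and lys-6 (NCU08898), 2 of 4 genes, and the aromatic route gave 3 of 9. The latter were aro-1 (NCU01632), which encodes the multifunctional AROM protein of the shikimate pathway, aro-3 (NCU05420), for chorismate synthase, and aro-7 (NCU09817), for 1 of the isozymes of the first step of the pathway. The AROM gene had 1209, 1486 and 1603 FPKM on WT sucrose, 27.2 to 77.5 in the 6 low WT libraries, 616 in WT on cellobiose and 1114, 67.6 and 46.1 in TBGK on sucrose, Avicel and cellobiose. Chorismate synthase had 1351 to 1432 on WT sucrose and 25.6 to 48.2 in the 6 low libraries. Its ratio of 27.5 was the highest of the aromatic genes, while the later tryptophan genes trp-1, trp-2, trp-4 and trp-5 had ratios of 1.78, 3.04, 1.54 and 1.90 and missed the rule. No histidine gene met it: his-2 (NCU09320) came nearest at 7.72.

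Synthesis of methionine, cysteine and S-adenosylmethionine gave 2 of 16 genes, eth-1 and cys-11, and the list of serine, glycine and related amino acids gave 1 of 10, for. The S-adenosylmethionine synthetase gene eth-1 (NCU02657), whose product makes the cell's methyl donor, had 7530.0, 12987 and 14325 FPKM on WT sucrose, 439, 147 and 165 on Avicel and 68.8, 74.5 and 88.6 without carbon. It had 4039 in WT on cellobiose and 7633, 703 and 404 in TBGK on sucrose, Avicel and cellobiose. TBGK on Avicel was the highest of the 8 low libraries, still well below WT on cellobiose. The ATP sulfurylase gene cys-11 (NCU01985), the entry of sulfate into metabolism, and for (NCU02274), a serine hydroxymethyltransferase, had 4193 to 6207 and 9757 to 14444 on WT sucrose and 69.2 to 271 and 168 to 464 in the 6 low WT libraries. Of the 14 sulfur genes that missed the rule, cys-18 and met-7 came nearest, with ratios of 7.89 and 7.54, and the regulator gene cys-3 had 1.40. In purine synthesis ad-5 (NCU02629), which acts at the end of the route to inosine monophosphate, was the 1 member among 8 purine and pyrimidine genes. It had 3838 to 5293 FPKM on WT sucrose, 1841 in WT on cellobiose and 262 in TBGK on cellobiose. The closest of the others, ad-8 (NCU09789), missed the rule with a ratio of 7.86.

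Over the 65 genes with an amino acid symbol, 18 (27.7%) were in the group, beside 34 of the 1093 genes with a symbol and 0.894% of all genes. The median ratio of the 65 was 4.52. The rule chose the members in that contrast, so nothing is read from the count. In TBGK, which the rule did not use, 52 of the 65 were at least 2-fold higher on sucrose than on Avicel and 1 was lower, beside 17.1% of all genes higher. On cellobiose 48 of the 65 were at least 2-fold higher in WT than in TBGK and 0 lower, beside 14.2% of all genes higher. Both counts include all 18 members, which the rule chose for high levels on WT sucrose. No share over all genes was taken for the lower direction. With 1 library a group these counts have no replicate check. The regulator gene cpc-1 (NCU04050) did not share the split, with 6575 to 11796 FPKM on WT sucrose, 3654 to 5524 in the 6 low libraries and 9781 in TBGK on cellobiose. Of the other genes on the cross-pathway control list, cpc-2 (NCU05810) missed the rule at a ratio of 6.18 but shared the split. It had 18068.5 FPKM in WT on cellobiose and 4046 in TBGK on cellobiose. The ratio of cpc-3 (NCU01187) was 0.493.

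**Figure D2:**
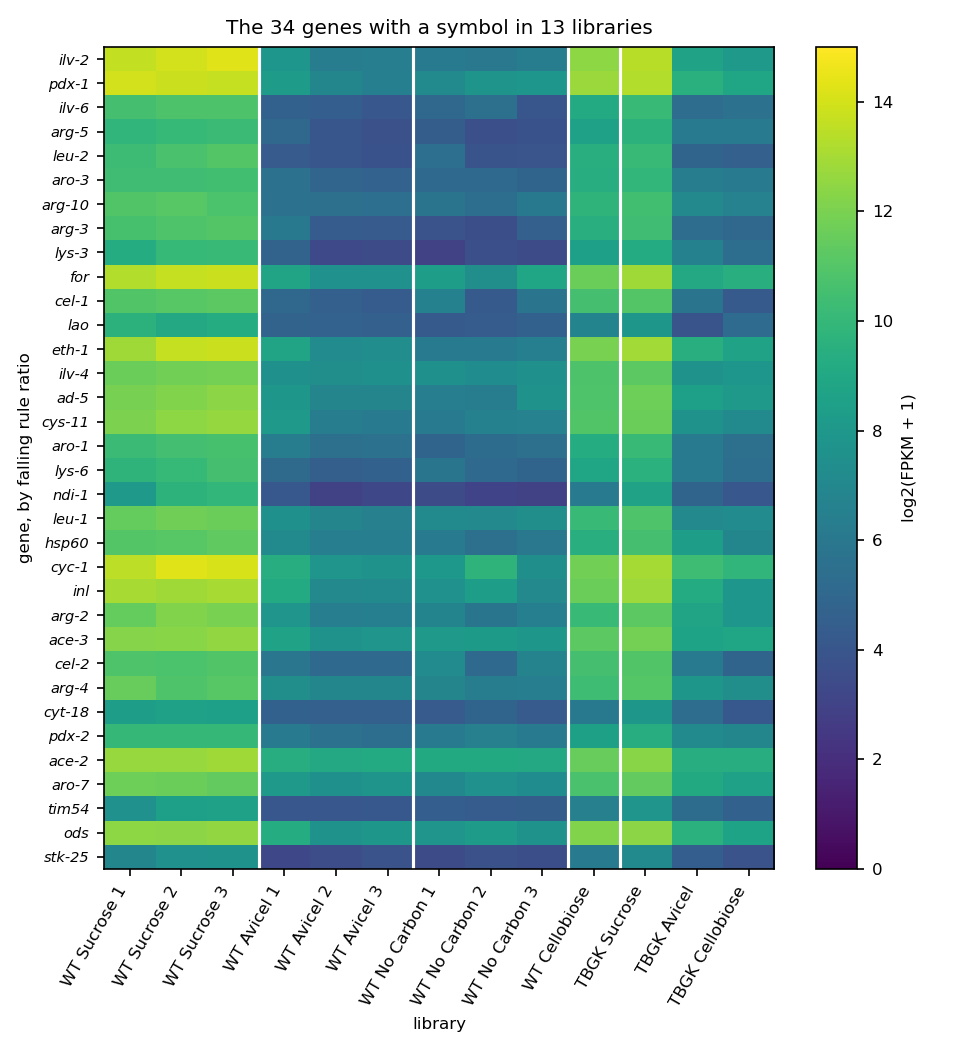
Levels of the 34 genes that carry a symbol, as log2(FPKM + 1) by colour, in 13 libraries (columns) and ordered from the highest to the lowest ratio (rows). The columns of WT on sucrose, WT on cellobiose and TBGK on sucrose are brighter than those of Avicel, no carbon and TBGK on cellobiose in every row.

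Both genes of vitamin B6 synthesis that met the rule are direct neighbours. The gene pdx-1 (NCU06550, supercont10.4, 1608319 to 1609701), for the synthase subunit, had 16419, 14043 and 13274 FPKM on WT sucrose, 312, 115 and 87.8 on Avicel and 143, 215 and 234 without carbon. WT on cellobiose had 6862, and TBGK had 10070.3 on sucrose, 723 on Avicel and 476 on cellobiose. Its partner pdx-2 (NCU06549, supercont10.4, 1605193 to 1607165), for the glutaminase subunit, lies 1153 bases away. It had 1005, 1009 and 1007 FPKM on WT sucrose, 41.6 to 91.3 in the 6 low WT libraries, 371 in WT on cellobiose and 115 in TBGK on cellobiose. Both genes were high and low in the same libraries, with levels of pdx-1 above those of pdx-2 in all 13 on the FPKM scale. The inositol phosphate synthase gene inl (NCU06666), which starts inositol synthesis, had 8364, 7582 and 8317 on WT sucrose, 3176 in WT on cellobiose and 237 in TBGK on cellobiose. Other genes with vitamin or cofactor symbols, 17 of 20, did not meet the rule.

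The only other pair of direct neighbours encodes fatty acid synthase. The genes cel-1 (NCU07308, supercont10.4, 4422513 to 4428535) and cel-2 (NCU07307, supercont10.4, 4432595 to 4439201), for the subunits of this enzyme, lie 4059 bases apart. For cel-1 FPKM was 1936, 2233 and 2409.6 on WT sucrose, 30.9, 23.3 and 19.7 on Avicel and 95.5, 17.7 and 52.7 without carbon, and 1528 in WT on cellobiose. TBGK had 2040.1 on sucrose, 52.8 on Avicel and 18.1 on cellobiose. The values of cel-2 were 1889, 1724 and 1933 on WT sucrose, 1521 in WT on cellobiose and 27.3 in TBGK on cellobiose. In WT on cellobiose cel-2 was thus nearer to sucrose than most of the 87 genes, and the pair had the widest gaps of the group between the strains on cellobiose, 6.32 and 5.75 log2 units. Another 2 pairs of members had 1 gene between them, NCU02627 with ad-5 and NCU08226 with NCU08228. The 87 genes lay on all 7 contigs, at 0.404% to 1.28% of the genes of each.

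Some members known for roles in mitochondria are described next, a grouping made after the members had been seen and not one of the gene lists. The cytochrome c gene cyc-1 (NCU01808), which carries electrons to the terminal oxidase, had 11453, 19811 and 17131 FPKM on WT sucrose, 657, 227 and 209 on Avicel and 259.6, 855 and 176 without carbon. It had 3602 in WT on cellobiose and 7961, 1314 and 949 in TBGK on sucrose, Avicel and cellobiose. Its no carbon replicate 2 stood above the other 5 low WT libraries. Genes of the pyruvate dehydrogenase complex, ace-2 (NCU06482) and ace-3 (NCU03004), which feed pyruvate into the citric acid cycle, had 6539.8 to 7327 and 4996 to 6082 on WT sucrose and 2943 and 2379 in WT on cellobiose. In TBGK on cellobiose they had 651 and 454. The chaperonin gene hsp60 (NCU01589), the import gene tim54 (NCU07295) and the alternative NADH dehydrogenase gene ndi-1 (NCU00153) were also put in this grouping. So was cyt-18 (NCU03030), a mitochondrial tyrosyl-tRNA synthetase that also helps introns to splice. In WT on cellobiose cyt-18 and ndi-1 were among the 5 members furthest below sucrose: cyt-18 had 319.8 to 377 FPKM on WT sucrose and 65.8 in WT on cellobiose, and ndi-1 262, 819 and 990.2 and 71.3. The import list had 1 member of 20 (tim54) and the heat shock list 1 of 11 (hsp60). None of 8 cytosolic ribosomal protein genes met the rule, at a median ratio of 4.24, although all 8 were at least 2-fold higher in TBGK on sucrose than on Avicel.

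Other genes with a symbol were not assigned to these routes here. The L-amino acid oxidase gene lao (NCU01066), which breaks amino acids down rather than making them, had 786, 530.0 and 616 FPKM on WT sucrose, 106 in WT on cellobiose and 240.2, 13.9 and 36.3 in TBGK on sucrose, Avicel and cellobiose. It was 1 of 4 members (4.6%) at least 2-fold higher in TBGK on cellobiose than on Avicel, beside 9.34% of all genes. The kinase gene stk-25 (NCU03823) had 117, 189 and 201 on WT sucrose and 8.35 to 13.3 in the 6 low libraries, and ods (NCU02209) had 5407 to 6135 and 205 to 619. Besides histidine synthesis and cytosolic ribosomal proteins, lists with no member were sugar transport, glycolysis and fermentation, the glyoxylate cycle, nitrogen metabolism, phosphate and sulfate uptake, polyamine synthesis, cross-pathway control, translation factors, histones, conidiation, light response, and cellulases with hemicellulases.

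The 53 genes without a symbol had mean levels of 27.6 to 15516 FPKM on WT sucrose (median 757), against 169 to 16132 (median 2224) for the 34 with one. In TBGK they were higher on sucrose than on Avicel by 1.24 to 6.47 log2 (median 3.13), and the 34 by 2.13 to 5.27 (median 3.47). Among the 53 was the one with the highest ratio, NCU03561 (supercont10.2, 225446 to 227557). This gene had 1377, 3052 and 3355 FPKM on WT sucrose, 16.5, 2.55 and 2.02 on Avicel and 1.76, 3.25 and 2.77 without carbon, so sucrose replicate 1 was lower than the other pair and Avicel replicate 1 higher than its own. WT on cellobiose had 546, and TBGK had 1617, 35.4 and 44.3 on sucrose, Avicel and cellobiose. NCU09497, NCU08226 and NCU04303 followed, with ratios of 48.5, 46.9 and 37.3, and NCU08473, at 28.4, also stood among the first 10. NCU08226 had 1649 to 2238 on WT sucrose, 2231 in TBGK on sucrose and 24.1 in TBGK on Avicel, the largest difference between sucrose and Avicel in TBGK (6.47 log2). NCU08473 was the member furthest below WT in TBGK on sucrose, with 42.1 against 158, 264 and 397 FPKM in WT. NCU00265 stood apart from all other members. It had 758, 837 and 762 FPKM on WT sucrose, 23.2 to 34.6 in the 6 low WT libraries and 757 in WT on cellobiose, but 11040.4 in TBGK on sucrose, 600.3 on Avicel and 649 on cellobiose. The mutant thus held it just below WT sucrose levels on Avicel and cellobiose and 14.0-fold above WT on sucrose, the only member more than 2-fold above WT there.

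Whether the group keeps its order in libraries the rule did not use was asked in TBGK. All 87 genes were at least 2-fold higher on sucrose than on Avicel, beside 17.1% of all genes, and 51 were at least 8-fold higher, beside 1.04%. The median difference in log2(FPKM + 1) was 3.34, with a range of 1.24 to 6.47, and the median over all genes was 0. Against TBGK on cellobiose all 87 were again at least 2-fold higher on sucrose, beside 19.3% of all genes, and 61 at least 8-fold, beside 1.35%, with a median of 3.63 (range 1.52 to 6.84). These comparisons share the TBGK sucrose library and have no replicate check. A limma fit over all 13 libraries, in which the single libraries were assumed to vary like the WT replicates, called 70 of the 87 higher on sucrose than on Avicel, beside 9.78% of 8759 genes. It called 75 higher on sucrose than on cellobiose, beside 12.7%. The smallest differences between sucrose and Avicel were those of NCU07112 (1.24 log2), NCU02546 (1.37), NCU01301 (1.72), NCU11889 (1.73) and NCU01257 (1.92); after NCU08226 the largest were those of NCU03561 (5.48), leu-2 (5.27), cel-1 (5.25) and NCU04942 (5.24).

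At the median the group was 0.689-fold the WT mean in TBGK on sucrose and 2.27-fold the WT mean in TBGK on Avicel. On sucrose 49 of 87 genes were below all 3 WT libraries, 35 within their range and 3 above it (NCU00265, NCU09648 and NCU08535), beside 21.2%, 52.9% and 25.9% of all genes. Against the WT sucrose mean 1 gene was at least 2-fold higher and 11 at least 2-fold lower in TBGK on sucrose, beside 9.64% and 2.3% of all genes. On Avicel 47 genes were at least 2-fold above the WT mean, beside 13.9% of all genes, and 1 (NCU08535) at least 2-fold below it, beside 9.33%. TBGK lay above the highest of the 6 low WT libraries in 62 genes on Avicel, beside 20.8% of all genes, and in 51 on cellobiose, beside 20.2%. The rule used the WT values of both media, and strain and deposit cannot be told apart.

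On cellobiose the strains parted, in a comparison of libraries that the rule did not use and that was chosen after its values had been seen. In WT on cellobiose 83 of the 87 genes were at least 2-fold higher than in TBGK on cellobiose, beside 14.2% of all genes, and 35 at least 8-fold, beside 0.709%. The median difference was 2.57 log2 (range 0.22 to 6.32). The 4 exceptions were NCU00265, NCU11889, NCU01301 and NCU02546, each still higher in WT. After cel-1 and cel-2 the widest gaps were those of leu-2 (4.79 log2), NCU08473 (4.74) and arg-3 (4.38). In the fit over 13 libraries 60 of the 87 were called higher in WT, beside 5.37% of 8759 genes. Within TBGK 12 genes were at least 2-fold lower on cellobiose and 4 higher, beside 7.82% and 9.34% of all genes, with a median of -0.33 log2. At any size of difference 60 of the 87 were lower on cellobiose, beside 44.1% of all genes. The 12 included lys-3, cel-1, cel-2, hsp60, inl and cyt-18, and the 4 were NCU08226, lao, NCU04942 and NCU04579. The fit over 13 libraries called 0 of the 87 in either direction between these media, beside 0.0114% higher and 0.0228% lower of all genes, and 8 at an unadjusted p under 0.05, beside 12.2%.

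**Figure D3:**
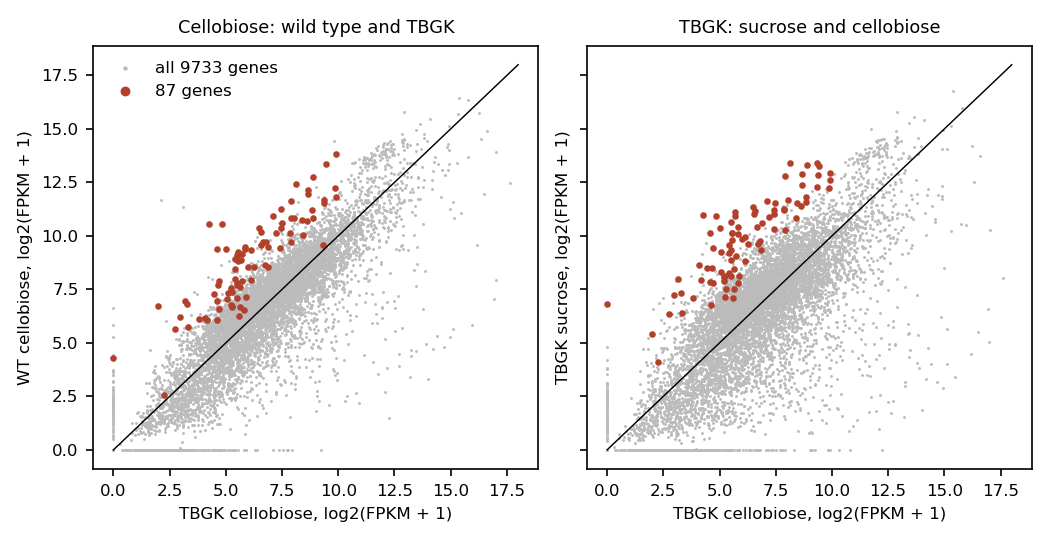
Levels as log2(FPKM + 1) of 9733 genes (grey) and the 87 genes (red), with TBGK on cellobiose on the horizontal axis and, on the vertical axes, WT on cellobiose (left) and TBGK on sucrose (right); the line marks equal levels. All 87 lie above the line in both panels, by a median of 2.57 log2 on the left and 3.63 on the right, and 1 of them (NCU09852) was listed at 0 in TBGK on cellobiose.

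WT on cellobiose lay between the sucrose and the low WT libraries. All 87 genes were at least 2-fold above the highest of the 6 low libraries, beside 7.51% of all genes, and 33 at least 8-fold, beside 0.473%. Against the WT sucrose mean 72 were at least 2-fold lower, beside 7.14% of all genes, and the median difference was -1.44 log2. Both the low and the sucrose levels were used by the rule. On a scale from 0 (mean of the 6 low libraries) to 1 (mean of the 3 sucrose libraries), in log2(FPKM + 1), the median place was 0.724. No gene lay at or below 0.25, 54 lay between and 33 at or above 0.75. The genes nearest to or above sucrose were NCU05259 (difference 0.22 log2), NCU00811 (-0.03), NCU00265 (-0.05), NCU03293 (-0.11) and cel-2 (-0.28). The furthest below were ndi-1 (-3.05 log2), lao (-2.57), NCU09852 (-2.45), cyt-18 (-2.39) and NCU02546 (-2.38).

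Cellulose and the lack of carbon were then compared with each other in WT, a direction that the rule does not set, although the same 6 libraries made its ceiling. All 87 passed the filter on low values (an FPKM no lower than 1 in 3 or more replicated WT libraries), as their sucrose levels alone ensure. By limma with Benjamini-Hochberg adjustment over 8759 genes, 1 of the 87 rose on Avicel and 0 fell, beside 3.9% and 1.72% of all genes. At an unadjusted p under 0.05 there were 13, or 14.9%, beside 19.4%. The median difference of the 87 was 0.10 log2 and that of all genes -0.16. The gene that rose, NCU03293, had 623, 512 and 259.6 FPKM on Avicel and 118, 147 and 64.4 without carbon. The groups did not overlap, and the difference was 2.06 log2 (SE 0.37, adjusted p = 0.0141). The call was lost without Avicel replicate 2 (adjusted p = 0.0593) and in a fit of the 6 libraries alone (0.0558). On WT sucrose this gene had 15582, 14814 and 16152 FPKM, with 14374 in WT on cellobiose and 6253, 1182 and 954 in TBGK on sucrose, Avicel and cellobiose. The next genes by p did not pass: eth-1 differed by 1.51 log2 (limma adjusted p = 0.0772), NCU00811 by 1.18 (0.101), NCU09852 by -1.19 (0.111) and hsp60 by 0.77 (0.132). A p that misses the threshold does not show that the media act alike. NCU09852 was listed at 0 in all 3 Avicel libraries and had 1.41, 1.67 and 0.847 FPKM without carbon, so it passed the filter on low values only through sucrose. Without Avicel replicate 1 and sucrose replicate 1, the shallowest libraries, 3 of the 87 (3.45%) rose and 3 fell, beside 5.96% and 4.29% of all genes, so neither share exceeded the background.

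Replicates within a medium differed for these genes, in values that the rule used. Sucrose replicate 1, shallow at 480.1 aligned megabases, was the lowest of the 3 sucrose libraries in 68 of 87 genes, beside 43.8% of all genes. Avicel replicate 1, the other shallow one, was the highest of the 6 low libraries in 52, beside 18.8%, and at least 2-fold above both other Avicel libraries in 26, beside 8.81%. The part of depth in this was not tested. The highest sucrose value was 1.36 times the lowest at the median, but 7.67 times at the most. In 16 genes (18.4%) sucrose replicate 1 was at most 0.5 times each other replicate, beside 14.3% of all genes, and in 0 genes it was at least 2 times each, beside 3.67%. The 14.3% includes genes at 0 in replicate 1, which the rule bars among the 87, so the shares are not directly comparable. NCU07547 is an example: it had 191, 1293 and 1229 FPKM in sucrose replicates 1, 2 and 3, 196 in WT on cellobiose and 344 in TBGK on sucrose. At the median of the 16, TBGK on sucrose was at 0.352 times the mean of WT sucrose replicates 2 and 3 and 1.40 times replicate 1. Of all genes, 1388 had the same drop in replicate 1, and over the 650 of them with a value above 0 there these ratios were 0.463 and 1.45. The drop in replicate 1 was thus not particular to the group. The 650 genes include the 16, and both sets were picked by a low replicate 1. That choice alone favours a TBGK value between the replicates, so nothing more is read from these ratios.

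How many genes meet the rule depends on these 2 libraries and on the scale. Without Avicel replicate 1 there would be 182, without sucrose replicate 1 there would be 322 and without both 385, each time with all 87 included. Summed FPKM differed between libraries, from 3.56e+06 in no carbon replicate 1 to 7.10e+06 in sucrose replicate 2, and after rescaling every library to the same sum 53 genes met the rule, all of them among the 87. That scaling moved the median difference of all genes between sucrose and the 6 low libraries from -0.22 to -0.67 log2. Under median-of-ratios scaling 87 genes met it, of which 84 were among the 87 described, and under quantile normalization 117, of which 83 were.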

How the data were processed

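Polyadenylated RNA of Neurospora crassa was sequenced in 13 libraries. The authors aligned reads with TopHat and estimated transcript levels with Cufflinks 0.9.3, per the submitters' processing notes, and deposited them as FPKM with, in the 9 replicated libraries, a coverage signal per transcript. Positions are the deposited ones on supercontigs, counted from 1. Their genome build is not given in the sources used here. FPKM was summed per gene with pandas 2.3.3 under python 3.11.15, and figures were drawn with matplotlib 3.10.9. Aligned megabases are the deposited coverage times the effective length, summed. Symbols came from RefSeq's genes of assembly NC12. Of 9733 genes, 8914 were found there, 1093 with a symbol.

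WT Avicel was tested against no carbon with limma 3.58.1 in R 4.3.3 (trend) on log2(FPKM + 1). The fit held the 9 replicated libraries and 8759 genes, those that reached an FPKM of 1 in 3 or more of them, with Benjamini-Hochberg adjustment and a threshold of 0.05. The pseudocount understates changes of low genes. Single libraries were compared by a fold of at least 2, and by an added limma fit over all 13 libraries. The fit was tested on simulated data. Replicates are biological ones per the labels.

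The 87 genes and the 26 gene lists, matched by symbol, were chosen with earlier results of these data known, and 2 lists were corrected after the symbols had been read. Genes were named by fixed ranks (largest ratio, highest level, largest and smallest differences, smallest p), by symbol, by list or by position. NCU08473, NCU09648, NCU08535, NCU04579 and NCU07547 were singled out by their values. Promoter motifs and sequences were not analysed here. Alternatives were other pseudocounts, filters, scalings, fits and left-out libraries.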

Additional observations from a re-analysis of the deposited data

Results flagged for a closer look

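In 60 of the 87 genes WT on cellobiose lay above every WT Avicel library while TBGK on cellobiose lay below TBGK on Avicel. The choice of genes required low levels on WT Avicel, which favours the WT side. It does not fix that side, as the rule did not use WT on cellobiose. All 87 genes met the WT side. The 60 is therefore the count of genes lower in TBGK on cellobiose than in TBGK on Avicel, beside 44.1% of all genes. The difference between the strains was not tested, because the WT Avicel values chose the genes. In TBGK the step was small, at a median of -0.33 log2 over the 87 genes. At a fold of at least 2, 12 of the 87 were lower and 4 higher on cellobiose, beside 7.82% and 9.34% of all genes. These are single libraries, without a replicate check.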

How the results depend on the processing

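The number of genes that meet the rule was 375 at a ratio of at least 4, 30 at a ratio of at least 16 and 53 after rescaling to a common sum, against 87. Leaving out 1 replicate gave 87 to 322, and leaving out both shallowest libraries, an alternative chosen after seeing the data, gave 385. The count of genes called between WT Avicel and no carbon, 493 as reported (342 higher on Avicel, 151 lower), ran from 256 to 627 without 1 replicate, being 293, 269, 276 and 256 without Avicel replicate 2, Avicel replicate 3, no carbon replicate 1 and no carbon replicate 3. It was 896 without the shallowest pair. Of the 87 genes, 1 was called as reported. With a pseudocount of 0.1 it was 2, beside 443 of 8759 genes, and under quantile normalization 2, beside 549 of 8725. A fit of the 6 libraries alone tested 86 of the 87 and called 0, beside 388 of 8748 genes. Without the shallowest pair it was 6, beside 896 of 8747, and without 1 replicate 0 to 3, beside the 256 to 627 above. The call added with a pseudocount of 0.1 was NCU09852, also among the 6, which passed the filter on low values only through sucrose. The gene lost where 0 were called was NCU03293, whose direction held in every alternative. With the replicate number as a block, 374 genes were called and 1 of the 87. Residuals of same-numbered libraries correlated at -0.20, -0.31 and 0.45 between Avicel and no carbon, the media compared, at 0.18, 0.12 and 0.18 between sucrose and Avicel, and at -0.12, -0.09 and -0.02 between sucrose and no carbon. Not every pair was above 0.1, so the numbers were not taken to pair the samples. The 7 counts recomputed for the single libraries (87, 87, 12, 87, 72, 35 and 83 genes) stayed within 1.5 times under the pseudocounts, scalings and filter tried, and the other counts were not recomputed. In the added limma fit over 13 libraries, the 12 genes lower in TBGK on cellobiose than on Avicel became 0, while 70, 75 and 60 were called in the comparisons that gave 87, 87 and 83 by fold. The causes of these shifts were not tested. No depth can be given for the 4 single libraries, their groups have no replicates, and strain, medium and deposit cannot be told apart in comparisons with the replicated libraries.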
